A study of Mus musculus with 4 samples.

Results

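The circadian clock genes measured here are Arntl (also called Bmal1), Clock, Npas2, Per1, Per2, Per3, Dbp, Tef, Nr1d1 and Nr1d2 in mouse kidney. They were chosen by name, and all 10 were found among the 54532 genes counted in each library, through their Ensembl identifiers and GENCODE M21. The study profiled kidney RNA of mice with lupus-like disease by polyA RNA-seq, with 2 WT libraries and 2 Zbp1-KO libraries. Pristane, an oil that induces autoimmunity, was injected intraperitoneally (500 µL) into all mice when they were 8 weeks old, and the kidneys were collected 8 months after that. Both groups were C57BL/6J mice, described by the study as female and kept free of specific pathogens. The Zbp1-/- line was made by CRISPR-Cas9 removal of several exons of Zbp1, a sensor of Z-form nucleic acids, in every cell. The WT mice came from another supplier, so genotype and origin of the animals cannot be told apart. No library from mice without pristane was analysed here, and every difference below is a difference between genotypes under pristane. The time of day at which kidneys were collected is not given in the sources used here.

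The circadian clock is a feedback loop of transcription factors that runs with a period of about a day in nearly every cell. ARNTL pairs with CLOCK or its relative NPAS2 and switches on the Period and Cryptochrome genes, whose proteins return to the nucleus and repress that pair. The same pair drives the nuclear receptors Nr1d1 and Nr1d2 (REV-ERB alpha and beta), which repress Arntl, and the PAR bZIP factors Dbp and Tef, which carry the rhythm to output genes. In kidney the clock is known to time sodium and water handling, and Dbp, Per3 and Nr1d1 are among its steepest oscillators, so the level of these genes in a single collection depends on the hour. A bulk kidney sample mixes many cell types, and fewer cells of a type cannot be told apart from less RNA per cell.

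The 4 libraries held 9878776 to 12921925 counts, of which 49.5% to 61.5% fell on mitochondrially encoded genes, leaving 4003417 to 5782924 counts for all others. Levels are given as CPM, the counts of a gene relative to the total of its library, scaled by TMM (trimmed mean of M values), and 3 counts corresponded to 0.221 to 0.323 CPM. The 9 proximal tubule markers were all detected, with summed levels of 9020 to 12230 CPM over the 4 kidney libraries. Zbp1 was counted 94 and 125 times in WT and 18 and 0 times in Zbp1-KO (7.56, 10.7, 1.33 and 0 CPM). The exact Poisson 95% interval of the count of 0 reached up to 0.397 CPM. The order of the libraries for Zbp1 followed the labels, although Zbp1-KO library 1 kept some counts. For Zbp1 the fitted log2 difference was -3.64 ± 0.89 (SE). In edgeR's quasi-likelihood test its adjusted p was 0.999, while edgeR's exact and likelihood ratio tests called it at an adjusted p under 0.05, as did the quasi-likelihood test with no filter beyond 1 count or without either Zbp1-KO library. Markers of fat summed to 86.5 and 124 CPM in the WT libraries and to 274 and 246 CPM in the Zbp1-KO libraries. All 7 tested fat markers were higher in both Zbp1-KO libraries, against 16.0% of all genes tested, and Lep was at 0 in all 4. T cell markers summed to 15.9 and 11.7 CPM against 29.3 and 28.1 CPM. The part of these shifts in the clock gene values was not tested.

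Known clock control elements were searched, on both strands, in RefSeq windows from 250 bases before to 50 bases after transcription starts (build GRCm38.p6). Windows existed for 9 of the 10 genes, 14 windows in all, and Per2 had none. The E-box CACGTG, the site of the ARNTL pair, lay in windows of Per1 and Tef, against 8.09% of all 27025 genes. The D-box TTATGTAA, the site of DBP and TEF, lay in the window of Per3 alone among the 9, against 1.11% of genes. The RRE, the site shared by REV-ERB and ROR receptors, lay in that of Arntl, against 0.459% of genes. The cyclic AMP element TGACGTCA was in no window of the 9 and in 2.03% of genes. These are matches of letters in a short window, and no binding was measured. The sites are shown because each matches the known element of a class of clock factor. The element is in capitals, the flanks are in lower case, and each line runs 5′ to 3′ on the strand of the gene.
Per1 E-box, chr11:69098774-69098797, plus strand, upstream of a start site: acccaagtcCACGTGcagggatgt
Tef E-box, chr15:81811267-81811290, plus strand, upstream of a start site: ctggcccagCACGTGtctacatcg
Tef E-box, chr15:81802537-81802560, plus strand, in an untranslated Tef exon and in an exon of Gm17597 on the other strand: ctgtggctcCACGTGctgcagctg
Arntl RRE, chr7:113207528-113207556, plus strand, in an untranslated Arntl exon: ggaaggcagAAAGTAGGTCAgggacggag

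Per3 was the only member whose window held the same element at 2 places, and its 250 bases before the start site (chr4:151044666-151044915, minus strand, GRCm38.p6, no annotated exon) are shown with both D-boxes in capitals.
Per3 upstream region: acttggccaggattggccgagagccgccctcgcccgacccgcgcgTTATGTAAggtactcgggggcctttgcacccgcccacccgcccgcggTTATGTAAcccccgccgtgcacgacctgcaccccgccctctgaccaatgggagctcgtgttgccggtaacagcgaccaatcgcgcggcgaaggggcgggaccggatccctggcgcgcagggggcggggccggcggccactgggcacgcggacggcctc
The first D-box begins 205 bases before the start site and the other 158 bases before it.

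Per length of exon, Tef and Per1 were the highest of the clock genes and Per3 the lowest. Over the 4 libraries, CPM per kilobase of exon was 11.9 ± 2.97 (SD, n = 4) for Tef, 9.21 ± 2.08 for Per1, 6.05 ± 2.03 for Nr1d1 and 4.26 ± 1.16 for Nr1d2. It was 2.05 ± 0.447 for Arntl, 1.99 ± 0.302 for Per2, 1.78 ± 0.412 for Clock, 1.41 ± 0.50 for Npas2, 1.15 ± 1.18 for Dbp and 0.576 ± 0.211 for Per3. Between neighbours in this order, the gap was larger than either SD from Per1 to Nr1d1 and from Nr1d2 to Arntl, and no other pair of neighbours differed beyond its spread. Dbp was the single gene whose SD exceeded its mean.

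**Figure D1:**
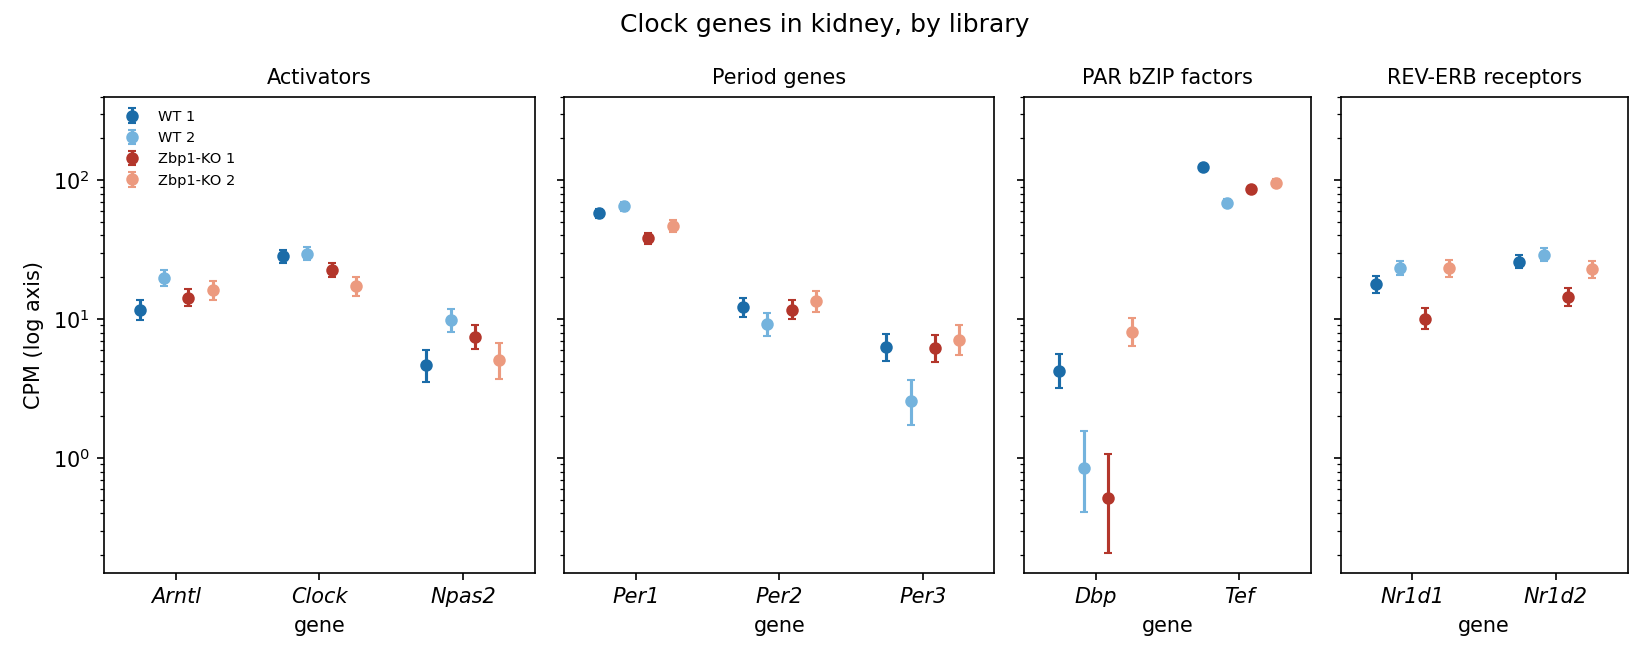
Level of the 10 clock genes in each of the 4 kidney libraries (CPM, log axis), with exact Poisson 95% counting intervals as bars. Clock, Per1 and Nr1d2 sit lower in both Zbp1-KO libraries than in both WT libraries, and Dbp spreads from 0.516 to 8.08 CPM with a low and a high library in each genotype.

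No clock gene passed the test between genotypes after correction over all genes tested. With edgeR's quasi-likelihood test and Benjamini-Hochberg adjustment, 0 of the 10 were called at an adjusted p under 0.05, against 0.0134% of the 14908 genes tested. DESeq2 and limma-voom also called 0 of the 10. All 10 passed the filter on low counts, and every adjusted p was 0.999. At an unadjusted p under 0.05, 2 of the 10 were lower in Zbp1-KO (Clock and Per1, with 1.97% of all genes lower by that rule) and 0 were higher (1.91% of all genes). Both Zbp1-KO values lay below both WT values for 3 of the 10 (Clock, Per1 and Nr1d2), a pattern seen in 16.3% of all genes. The shares of 2 in 10 and 3 in 10 exceed those of all genes, but the members act in a shared loop and are not independent. The members were also chosen with earlier results of these data known, so these shares are a description and no test. The opposite pattern was seen for 0 of the 10 and for 16.0% of all genes, and the groups overlapped for the other 7. The fitted log2 fold change was above 0 for 3 members and below 0 for 7, with a median of -0.15 beside -0.01 over all genes. With 2 libraries against 2, an exact two-sided permutation test of a single gene cannot go below p = 0.333, and nothing in the labels beyond their numbering says that libraries of a group are separate animals, so the p-values measure the spread between these libraries.

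The activators of the loop did not share a pattern between genotypes. The groups overlapped for Arntl and Npas2 and lay apart for Clock. Arntl (ENSMUSG00000055116, chr7:113207465-113314126, plus strand), the partner without which the loop stops, was counted 145 and 230 times in WT and 194 and 150 times in Zbp1-KO, or 11.7, 19.7, 14.3 and 16.2 CPM. WT library 1 was the lowest and WT library 2 the highest, with both Zbp1-KO libraries between them. Its log2 fold change, Zbp1-KO over WT, was -0.04 ± 0.32 (SE), with a 95% interval of -0.73 to 0.65. Clock (ENSMUSG00000029238, chr5:76209868-76304792, minus strand), its usual partner, had 353, 346, 307 and 161 counts in the same order, or 28.4, 29.6, 22.6 and 17.3 CPM. The WT libraries lay close together, both Zbp1-KO libraries lay below them, and Zbp1-KO library 2 was the lowest. On the log2 scale Zbp1-KO minus WT was -0.53 ± 0.24, with an interval of -1.06 to -0.0053 and an unadjusted edgeR p of 0.0481. Npas2 (ENSMUSG00000026077, chr1:39193731-39363236, plus strand), which can stand in for CLOCK, had 58, 115, 101 and 47 counts, or 4.66, 9.84, 7.45 and 5.06 CPM. WT library 2 was again the highest and WT library 1 the lowest, so the groups overlapped as they did for Arntl. This gave a log2 fold change of -0.20 ± 0.48, with an interval of -1.26 to 0.85. The count ratio of Clock to Arntl was 2.43, 1.5, 1.58 and 1.07 across WT libraries 1 and 2 and Zbp1-KO libraries 1 and 2.

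The Period genes encode the repressors that close the loop, and Per1 was the most abundant of them. Per1 (ENSMUSG00000020893, chr11:69095217-69109960, plus strand) was counted 719 and 756 times in WT and 518 and 434 times in Zbp1-KO, or 57.8, 64.7, 38.2 and 46.8 CPM. The groups did not overlap, and Zbp1-KO library 1 was the lowest. Its mean was 61.2 ± 4.83 CPM (SD, n = 2) in WT and 42.5 ± 6.05 CPM in Zbp1-KO, a log2 fold change of -0.53 ± 0.20 with an interval of -0.97 to -0.089, an unadjusted edgeR p of 0.0225 and an adjusted p of 0.999. Per2 (ENSMUSG00000055866, chr1:91415982-91459324, minus strand) had 151, 108, 159 and 125 counts, or 12.1, 9.24, 11.7 and 13.5 CPM. WT library 2 was the lowest and the other libraries lay close together. Zbp1-KO over WT was, in log2, 0.23 ± 0.32, with an interval of -0.47 to 0.94. Per3 (ENSMUSG00000028957, chr4:151003652-151044665, minus strand) had 78, 30, 84 and 66 counts, or 6.27, 2.57, 6.19 and 7.11 CPM. WT library 2 stood apart below the others, whose values differed little, and WT library 1 lay between the Zbp1-KO libraries. It differed by a log2 fold change of 0.58 ± 0.54, with an interval of -0.59 to 1.76. Per1 had its highest value in the library in which Per2 and Per3 had their lowest, and the Per1 to Per2 count ratio was 4.76, 7, 3.26 and 3.47 over the 4 libraries. Without WT library 2 the Per3 log2 fold change was 0.08, and without WT library 1 it was 1.36.

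Per1 is also an immediate-early gene, induced within minutes by stress hormones and growth signals. The immediate-early list summed to 735 and 328 CPM in the WT libraries and 190 and 205 CPM in the Zbp1-KO libraries. In that list, chosen with earlier results of these data known, 13 of 15 tested genes lay lower in both Zbp1-KO libraries, against 16.3% of all genes tested. By edgeR's quasi-likelihood test 12 were lower at an unadjusted p under 0.05, against 1.97% of all genes, and 0 were called after adjustment. DESeq2 and limma-voom each called 2, Ccn1 and Dusp1. The exact test and the replicate block of edgeR each called 4 (Ccn1, Nr4a1, Dusp1 and Egr1), and its likelihood ratio test called 5, with Fos in addition. Without WT library 2 the quasi-likelihood test called 8 of the list, and without WT library 1 it called 0. The median log2 fold change of the list was -1.16, and Dusp1, a phosphatase gene of the list, had 93.4, 55.8, 15.6 and 30.2 CPM. The list sum and Per1 were both lower in both Zbp1-KO libraries than in both WT libraries. Within WT, the list sum was higher in library 1 and Per1 in library 2. The 12 glucocorticoid response genes, to which Dusp1 also belongs, summed to 694, 501, 447 and 536 CPM, with a median of -0.08. Of the 12, 3 lay lower in both Zbp1-KO libraries, against 16.3% of all genes tested. The groups overlapped for 9, and for 10098 of the 14908 genes tested. At an unadjusted p under 0.05 in edgeR's quasi-likelihood test 3 were lower, against 1.97% of all genes, and 0 were called after adjustment. The part of either list in the Per1 values was not tested.

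Dbp and Tef carry the rhythm to output genes, and Dbp varied more between libraries of the same genotype than any other member. Dbp (ENSMUSG00000059824, chr7:45705088-45710203, plus strand), which binds the D-box, was counted 53 and 10 times in WT and 7 and 75 times in Zbp1-KO. In CPM this was 4.26 (exact Poisson 95% interval 3.19 to 5.58), 0.855 (0.41 to 1.57), 0.516 (0.21 to 1.06) and 8.08 (6.35 to 10.1). Each genotype held a high and a low library, and within each genotype the counting intervals did not overlap. The libraries of a group differed 4.98-fold in WT and 15.7-fold in Zbp1-KO. Among the 14908 genes, the gap between replicates was at the 97.2 percentile in WT and the 98.3 percentile in Zbp1-KO. The biological coefficient of variation that edgeR estimated was 0.688 for Dbp, where 0.462 was the trend for genes of that level. The log2 fold change between genotypes was 0.72 ± 1.05, with an interval of -1.57 to 3.01. Without Zbp1-KO library 2 it turned to -2.30, and without WT library 1 it was 2.29. Tef (ENSMUSG00000022389, chr15:81802421-81826863, plus strand), its relative, had 1549, 805, 1166 and 893 counts, or 124.6, 68.8, 86.0 and 96.2 CPM. WT library 1 was the highest and WT library 2 the lowest, with the Zbp1-KO libraries close together between them. On the log2 scale Zbp1-KO minus WT was -0.09 ± 0.25, with an interval of -0.64 to 0.46, and it turned to 0.40 without WT library 1. Hlf, the remaining PAR bZIP gene and not a member, had 10.8, 11.9, 9.66 and 14.1 CPM, named here after its values were seen, and its libraries did not split in the way those of Dbp did.

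The REV-ERB receptors repress Arntl through the RRE. Nr1d1 (ENSMUSG00000020889, chr11:98767932-98775333, minus strand) was counted 221 and 274 times in WT and 137 and 215 times in Zbp1-KO, or 17.8, 23.4, 10.1 and 23.2 CPM. Zbp1-KO library 1 stood below the others and Zbp1-KO library 2 lay within the WT range. This gave a log2 fold change of -0.32 ± 0.36, with an interval of -1.10 to 0.46, and without Zbp1-KO library 1 it turned to 0.16. Nr1d2 (ENSMUSG00000021775, chr14:18204054-18239127, minus strand) had 323, 339, 196 and 212 counts, or 26.0, 29.0, 14.5 and 22.8 CPM. Zbp1-KO library 1 was again the lowest, and here Zbp1-KO library 2 also lay below both WT libraries. Zbp1-KO over WT was, in log2, -0.57 ± 0.27, with an interval of -1.16 to 0.02 and an unadjusted edgeR p of 0.0588. Its value stayed below 0 with any single library left out, at -0.27 without Zbp1-KO library 1 and -0.93 without Zbp1-KO library 2.

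**Figure D2:**
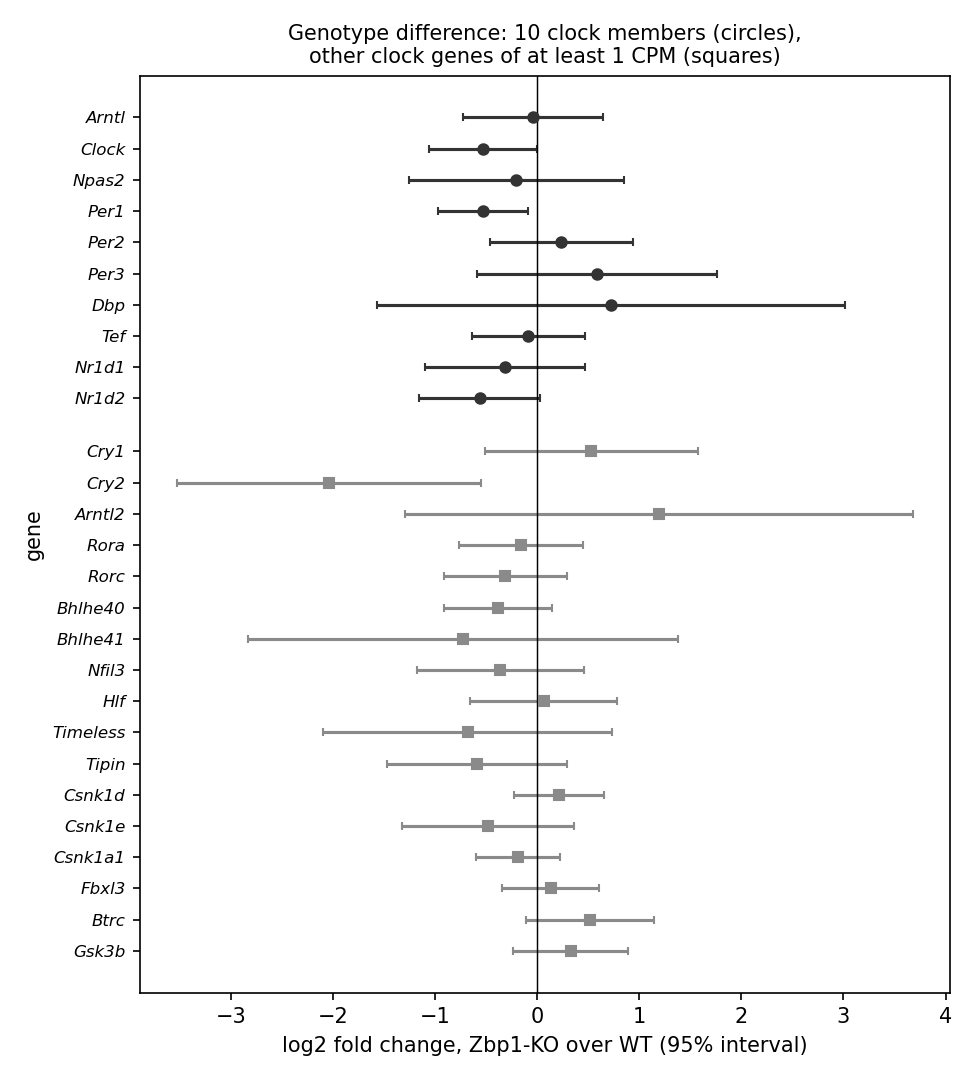
Log2 fold change, Zbp1-KO over WT, with 95% intervals from edgeR's quasi-likelihood fit, for the 10 clock genes (circles) and the other clock genes with a mean of at least 1 CPM (squares). The intervals of Per1 (-0.97 to -0.089) and Clock (-1.06 to -0.0053) end just below 0, that of Nr1d2 just above 0, and that of Dbp is the widest of the circles at -1.57 to 3.01.

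Exons of 4 members share bases with a gene on the other strand. The study describes its libraries as strand-specific, but the strand setting of the counting is not given in the sources used here. Dbp shares 539 bases with Sphk2, which had 26.0, 24.5, 35.0 and 28.0 CPM and so did not follow the order of Dbp. Nr1d1 shares 263 bases with the thyroid receptor gene Thra, which had 57.1, 52.8, 41.4 and 52.0 CPM and was lowest in Zbp1-KO library 1, as Nr1d1 was. Tef shares 193 bases with Gm17597, which had 0 to 18 counts, and Arntl shares 33 bases with Gm45355, which had 0 in all libraries. The part of reads from the opposite strand in Nr1d1 was not tested.

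Set side by side, the libraries of a genotype differed from each other in different members. In WT library 2, Arntl, Clock, Npas2, Per1, Nr1d1 and Nr1d2 had their highest values and Per2, Per3 and Tef their lowest. In WT library 1, Arntl and Npas2 had their lowest values and Tef its highest. In Zbp1-KO library 1, Dbp, Nr1d1, Nr1d2 and Per1 were at their lowest. In Zbp1-KO library 2, Dbp, Per2 and Per3 were at their highest and Clock was at its lowest. The counting interval lay apart from those of all other libraries for Per3 and Tef in WT library 2 and Tef in WT library 1. It also did for Nr1d1, Nr1d2 and Per1 in Zbp1-KO library 1, and for Dbp in Zbp1-KO library 2. Each remaining extreme overlapped another library in its counting interval. The count ratio of Arntl to Dbp, genes that peak at opposite times of day, was 2.74 in WT library 1, 23 in WT library 2, 27.7 in Zbp1-KO library 1 and 2 in Zbp1-KO library 2. The ratio of Arntl to Per3 was 1.86, 7.67, 2.31 and 2.27 in the same order, so it set apart WT library 2 alone. That of Arntl to Nr1d1 was 0.656, 0.839, 1.42 and 0.698, and it set apart Zbp1-KO library 1. No single order of the 4 libraries was shared by Dbp, Per3 and Nr1d1.

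**Figure D3:**
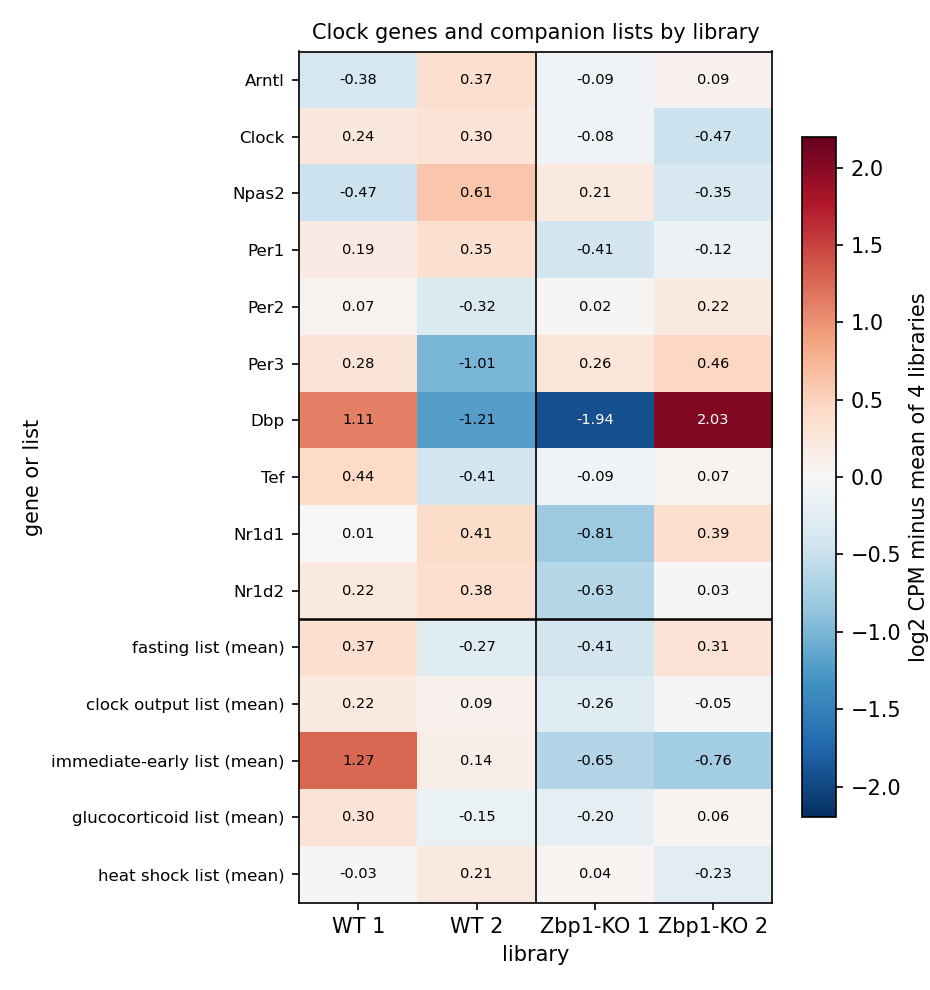
Log2 CPM of each clock gene in each library minus the mean of that gene over the 4 libraries, with the same quantity averaged over the genes of 5 companion lists below the line. Dbp is high in WT library 1 (1.11) and Zbp1-KO library 2 (2.03) and low in WT library 2 (-1.21) and Zbp1-KO library 1 (-1.94), and the fasting and glucocorticoid lists are above 0 in the same libraries as Dbp.

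The fasting and glucocorticoid lists were both above 0 in the libraries in which Dbp was high and below 0 in the others. The list of 10 genes, which respond to food withdrawal through PPAR alpha and glucagon, had a mean centred log2 level of 0.37 in WT library 1, -0.27 in WT library 2, -0.41 in Zbp1-KO library 1 and 0.31 in Zbp1-KO library 2. Its most abundant genes were Pck1, at 242, 235, 231 and 275 CPM, Cyp4a10, at 166, 114, 131 and 191 CPM, and Cpt1a, at 70.3, 48.8, 70.0 and 68.4 CPM. Of these Cyp4a10, a fatty acid hydroxylase gene, was higher in the libraries with high Dbp, while Pck1 differed little and Cpt1a was low in WT library 2 alone. Cyp4a14 (73.6, 27.5, 26.0 and 71.8 CPM) and Angptl4 (60.4, 31.7, 17.0 and 61.1 CPM), named after their values were seen, had the 4 libraries in nearly the order of Dbp. Between genotypes, 0 of the 10 fasting genes had an unadjusted p under 0.05 in edgeR, against 1.97% of all genes tested lower and 1.91% higher. The groups overlapped for 9 of the 10, and for 10098 of the 14908 genes tested. The glucocorticoid list had centred levels of 0.30, -0.15, -0.20 and 0.06 in the same order. These signs were not particular to the fasting and glucocorticoid lists. The kidney transport genes described below (0.17, -0.13, -0.05 and 0.0056) and the fibroblast and muscle markers (0.25, -0.03, -0.38 and 0.15) had them too. The heat shock list, which also holds other genes that respond to temperature (Cirbp and Rbm3), had centred levels of -0.03, 0.21, 0.04 and -0.23. Its mean does not separate genes that rise with temperature from genes that fall. Proximal tubule markers had centred levels of 0.11, 0.05, -0.34 and 0.18, lowest in Zbp1-KO library 1, in which Nr1d1 and Nr1d2 were lowest too. The summed levels of these markers were 12230, 9020, 12011 and 10713 CPM, lowest in WT library 2 instead. With 4 libraries these orders are a description, and their part in the clock values was not tested.

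**Figure D4:**
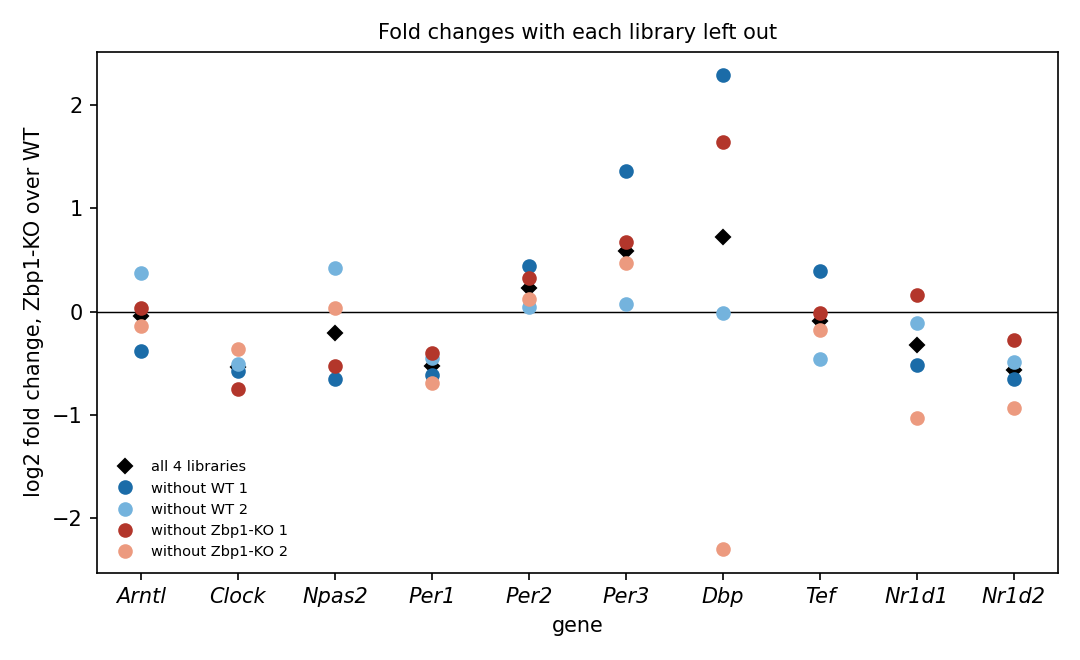
Log2 fold change, Zbp1-KO over WT, of each clock gene with all 4 libraries (black diamonds) and with each library left out in turn (coloured points). Clock, Per1 and Nr1d2 stay below 0 throughout, Per2 and Per3 stay above 0, and Dbp runs from -2.30 to 2.29.

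The rest of the clock machinery did not pass the correction either when all 4 libraries were fitted. Of 20 other clock genes, 18 were tested and 0 were called by edgeR, DESeq2 or limma-voom, with a median of -0.18. Only 1 had an unadjusted p under 0.05 in edgeR (lower, against 1.97% of all genes tested). In both Zbp1-KO libraries 3 lay above and 6 below WT, against 16.0% and 16.3% of all genes, and 9 overlapped. The gene with the lowest p was Cry2, a Cryptochrome repressor that acts with the Period proteins, with 108, 70, 10 and 27 counts, or 8.69, 5.99, 0.737 and 2.91 CPM. Both Zbp1-KO libraries lay below both WT libraries, with Zbp1-KO library 1 lowest. Its log2 fold change was -2.04 ± 0.68, with an interval of -3.53 to -0.55, an unadjusted edgeR p of 0.0114 and an adjusted p of 0.999. Without Zbp1-KO library 2 the number of other clock genes called was 1, Cry2 itself. The next genes by p were Btrc, a subunit of the ligase that marks Period proteins for decay, at 14.6, 10.9, 17.8 and 18.6 CPM, Bhlhe40, an E-box repressor, at 27.1, 22.3, 18.3 and 19.6 CPM, and Tipin, which encodes the partner of TIMELESS, at 10.1, 7.87, 6.27 and 5.60 CPM. Gsk3b and Csnk1e, kinases of clock proteins, had 18.0, 23.0, 29.5 and 21.9 CPM and 8.93, 20.2, 10.9 and 9.80 CPM. Btrc lay higher, and Bhlhe40 and Tipin lower, in both Zbp1-KO libraries, and the groups overlapped for Gsk3b and Csnk1e. Ciart, a repressor of the ARNTL pair, and Rorb stayed under the filter, with 1, 12, 7 and 2 counts and with 3, 0, 4 and 0.

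Among 15 genes known as clock outputs, all tested, 0 were called by edgeR, DESeq2 or limma-voom, and the median was -0.17. At an unadjusted p under 0.05 in edgeR 2 were lower, against 1.97% of all genes tested. In both Zbp1-KO libraries 0 lay above and 4 below WT, against 16.0% and 16.3% of all genes. Klf9, a transcription factor gene under both the clock and glucocorticoids, had 21.2, 20.4, 7.96 and 13.9 CPM, a log2 fold change of -0.94 ± 0.32. Ppara, the lipid-sensing receptor gene, had 37, 63, 10 and 10 counts, or 2.98, 5.39, 0.737 and 1.08 CPM, a log2 fold change of -2.2 ± 0.82. The groups did not overlap for Klf9 or Ppara, and the adjusted edgeR p was 0.999 for each. Usp2, a deubiquitinase gene driven by the ARNTL pair in most tissues, had 58.3, 56.6, 47.2 and 54.8 CPM, with no overlap but a small gap. The remaining named outputs overlapped, namely Tspan4 at 16.2, 8.81, 9.22 and 9.69 CPM, Coq10b at 13, 22.1, 15.3 and 13.7 CPM, and Por, the reductase gene that serves cytochrome P450 enzymes, at 73.0, 56.3, 66.2 and 47.6 CPM.

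The kidney clock is known for its hold on tubular transport, and 22 such genes were listed. Of the 21 tested 0 were called by edgeR, DESeq2 or limma-voom, and the median was -0.10. In both Zbp1-KO libraries 4 lay above and 4 below WT, against 16.0% and 16.3% of all genes tested. At an unadjusted p under 0.05 in edgeR 3 were lower, against 1.97% of all genes. The 3 were Scnn1b, a subunit of the epithelial sodium channel, at 44.2, 41.3, 26.1 and 25.5 CPM, Aqp2, the vasopressin-regulated water channel, at 903, 1061, 730 and 530 CPM, and Sgk1, the kinase that keeps the sodium channel at the membrane, at 121, 94.9, 80.0 and 78.1 CPM. Their log2 fold changes were -0.73 ± 0.21, -0.64 ± 0.20 and -0.45 ± 0.19, each with an adjusted edgeR p of 0.999. In all 3 the groups did not overlap. The other listed subunits of the sodium channel did not follow Scnn1b. Scnn1a lay higher in both Zbp1-KO libraries (75.7, 59.7, 78.4 and 77.3 CPM), and Scnn1g overlapped (18.3, 8.30, 12.1 and 10.6 CPM), both named after their values were seen. Without Zbp1-KO library 2 the number of transport genes called was 1, Slc5a2, the glucose transporter of the proximal tubule, which had 45.0, 33.9, 8.48 and 44.0 CPM and was named after its values were seen. The collecting duct, the segment in which Scnn1b and Aqp2 are made, had 8 markers. In both Zbp1-KO libraries 3 of the 8 lay below WT and 1 above, against 16.3% and 16.0% of all genes tested. At an unadjusted p under 0.05 in edgeR 2 of the 8 were lower, against 1.97% of all genes. These were Aqp2 and the water channel gene Aqp3, which had 71.4, 74.4, 59.1 and 37.9 CPM and was named after its values were seen. The part of this segment's cells in the values of Scnn1b and Aqp2 was not tested. The median log2 fold change of the 8 was -0.03, and their sum, to which Aqp2 itself belongs, was 1409, 1506, 1214 and 1002 CPM. Edn1, the endothelin gene that Per1 is known to repress in the collecting duct, had 3.86, 1.2, 4.2 and 7.43 CPM, a log2 fold change of 1.19 ± 0.68 and an unadjusted edgeR p of 0.105. Edn1 was lowest in WT library 2, in which Per1 was highest. Edn1 was highest in Zbp1-KO library 2 and Per1 lowest in Zbp1-KO library 1. A relation of Edn1 to Per1 was not tested. Avpr1a, a vasopressin receptor gene, had 3.70, 3.16, 5.53 and 6.14 CPM, also without overlap, and Hsd11b2, which shields the mineralocorticoid receptor from glucocorticoids, had 149, 93.1, 145 and 158 CPM with overlap.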

How the data were processed

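Kidney RNA was sequenced after polyA selection, from libraries that the study describes as strand-specific. Per the labels and the study's methods, the authors trimmed read pairs, aligned them to mm10 with HISAT2 and counted uniquely mapped pairs per gene with featureCounts, and they deposited raw counts per Ensembl gene for each library. Versions and the strand setting of the counting are not given in the sources used here. Of 54532 identifiers, 54495 were matched to GENCODE M21 (GRCm38, the assembly of mm10). The deposited counts were tested with edgeR 4.0.16 in R 4.3.3 (filterByExpr with minimum count 10 and minimum total 15, TMM, quasi-likelihood F test, Benjamini-Hochberg adjustment over 14908 genes, calls at adjusted p under 0.05, prior count 0.125), a procedure tested on simulated data. The standard error is the fold change divided by the root of F, and percentiles of replicate gaps used a pseudocount of 0.1 CPM. Depth was 9878776 to 12921925 counts per library, and intervals and floors cover counting error only. The alternatives were other scalings, filters and tests (edgeR's exact and likelihood ratio tests, DESeq2 1.42.0, limma 3.58.1), a replicate block, mitochondrially encoded genes left out, and each library left out. The members and lists were chosen with earlier results of these data known. Named genes were all members, the lowest unadjusted p (up to 6) with a mean of at least 1 CPM in the clock, output and transport lists, and the most abundant (up to 3) in the others.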

Additional observations from a re-analysis of the deposited data

How the results depend on the processing

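Of 140 values of the 10 clock genes under the alternatives, 129 kept their direction, 11 turned and 0 were called. Arntl became 0.0040 with the replicate block, 0.0011 with limma-voom, 0.38 without WT library 2 and 0.039 without Zbp1-KO library 1. Npas2 became 0.42 without WT library 2 and 0.033 without Zbp1-KO library 2. Dbp became -0.42 with limma-voom, -0.015 without WT library 2 and -2.30 without Zbp1-KO library 2, Tef 0.40 without WT library 1, and Nr1d1 0.16 without Zbp1-KO library 1. With 1 library left out in turn, the ranges were -0.38 to 0.38 for Arntl, -0.65 to 0.42 for Npas2, -2.30 to 2.29 for Dbp, -0.46 to 0.40 for Tef and -1.03 to 0.16 for Nr1d1. The cause was not tested. Clock, Per1 and Nr1d2 stayed below 0 in all 14 alternatives, with an unadjusted p under 0.05 in 8, 12 and 4 of them, and their lowest adjusted p values there were 0.560, 0.381 and 0.295.

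The number of clock members called was 0 and that of output genes 0 in every alternative run. It was 0 to 1 for the other clock genes and 0 to 1 for the transport genes when libraries were left out, the 1 being Cry2 and Slc5a2, each without Zbp1-KO library 2. Over all genes, 2 were called, and this moved to 41 (14 higher, 27 lower) with no filter beyond 1 count, 11 (4 and 7) with the replicate block, 14 (6 and 8) with edgeR's exact test, 26 (10 and 16) with its likelihood ratio version, 9 (5 and 4) with DESeq2, 7 (4 and 3) with limma-voom, 4 (3 and 1) without mitochondrially encoded genes, and 0 to 37 with 1 library left out (0 without WT library 1, 37 without Zbp1-KO library 2). A group left with 1 library was assumed to vary like the other. Same-numbered libraries did not deviate together (correlation 0.0092 over genes). This cannot show whether they share a litter, a day or an hour of collection, which the labels do not give. Dbp had the fewest counts of the members in a library (7) and a spread between libraries of a genotype larger than its counting intervals.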
